A study of Mus musculus with 40 samples.

Results

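The 9 genes described here encode proteins of the hemidesmosome, chains of laminin-332 and other receptors of this laminin, by which basal epithelial cells hold to their basement membrane. They are Itga6, Itgb4, Itga3, Itgb1, Lama3, Lamb3, Col17a1, Cd151 and Dst, taken by symbol from a table of 53465 mouse genes, and all 9 were among the 16921 genes that passed the filter on low counts. The libraries are polyA RNA-seq of mouse bladder urothelial cells grown as organoids, in 4 groups of 2: cells labelled as Kmt2c and Kmt2d double knockouts (dKO) given MI-503, dKO cells given the solvent DMSO, wild-type (WT) cells given MI-503, and WT cells given DMSO. MI-503, used at 1 µM for 4 days, is a small molecule that blocks the binding of menin to the histone methyltransferase KMT2A. All groups grew in DMEM/F12 with B27, N-acetylcysteine, EGF, Noggin, R-spondin, the ROCK inhibitor Y-27632 and the TGF-beta receptor inhibitor A83-01, with glutamine and antibiotics. The labels do not say how the knockout was made, whether a genotype is 1 line or clone, or whether replicates were separate cultures, so p-values measure only the spread between these libraries.

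The hemidesmosome is a rivet in the basal membrane of stratified epithelia and urothelium. Inside the cell, plectin and the epithelial form of dystonin link keratin filaments to the integrin alpha-6 beta-4 and to collagen XVII. Outside, these receptors bind laminin-332, a protein of several chains, alpha-3 and beta-3 among them, that the epithelial cells secrete. The integrin alpha-3 beta-1 binds the same laminin but connects to actin, and the tetraspanin CD151 associates with both laminin-binding integrins.

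Library totals ran from 58113705 to 68571176 counts, and the least abundant of the 9 genes, Cd151, had at least 4691 counts in each library. The WT DMSO libraries stood apart in composition: their TMM scaling factors were 0.896 and 0.892, against 1.01 to 1.06 in the other 6, and both libraries of the group share this. Kmt2c RNA was lower in dKO than in WT cells in DMSO, at 53.8 ± 2.08 against 111 ± 0.476 CPM (log2 fold change of -1.04 with SE 0.059, adjusted p = 2.6e-09), whereas Kmt2d RNA was higher, at 122 ± 15.7 against 91.0 ± 6.26 CPM (log2 fold change of 0.43 with SE 0.10, adjusted p = 0.00166). Whole-gene counts do not show whether exons were deleted. Of the 6 basal urothelial markers, all were detected, with summed levels of 18282 to 20419 CPM in dKO MI-503, 18895 to 20871 in dKO DMSO, 11732 to 12403 in WT MI-503 and 9081 to 9859 in WT DMSO. Krt5 was the largest part of each sum, with means of 10389.5, 9579, 7470 and 3974 CPM in the same order. The sum therefore does not stand for each marker: with MI-503 in WT cells, 2 of the 6 rose and 3 fell. The 12 intermediate and umbrella cell markers summed to 1717 to 1754 CPM in dKO MI-503, 1652 to 1710.1 in dKO DMSO, 1249 to 1260.2 in WT MI-503 and 1582 to 1693 in WT DMSO. Of the 11 of them tested, 6 rose, 4 fell and 1 did not pass in dKO cells in DMSO. On the log2 scale, Krt20, a keratin of umbrella cells, was at 5.07, Krt13 at 1.24 and Pparg, a regulator of urothelial differentiation, at -1.38. Krt20 was low, at 10.8 ± 0.763 CPM in dKO DMSO against 0.320 ± 0.0847 in WT DMSO, and Krt13 was at 577 ± 13.1 against 244 ± 19.6 CPM. The low markers Upk3a, Upk1a and Upk3b moved in both directions, at 3.18, -1.67 and -4.60, with means of at most 2.09 CPM in these groups. Levels are given in CPM, the share of a library's counts scaled by its total and its TMM factor, as the values of the libraries or as mean ± SD (n = 2 each). In bulk RNA, fewer cells of a type and less RNA per cell cannot be told apart.

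In DMSO, all 9 genes had more RNA in dKO than in WT cells, with log2 fold changes from 0.13 for Cd151 to 1.49 for Itga6 and a median of 1.06. Adjusted p-values are from edgeR's quasi-likelihood F test with Benjamini-Hochberg adjustment over all 16921 genes, and a gene is said to have risen or fallen below 0.05. Of all genes tested, 29.6% rose and 35.8% fell in this comparison, 65.4% in all, and the median of all genes was -0.052. MI-503 raised 7 of the 9 genes in WT cells, where 35.2% of all genes rose, 33.7% fell and 69.0% changed in either direction. In dKO cells it raised 1 and lowered 4, where 29.1% of all genes rose, 26.5% fell and 55.6% did either. Between the genotypes in MI-503, 4 genes rose and 1 fell in dKO cells, where 26.6% of all genes rose, 28.5% fell and 55.1% did either. The libraries of the groups did not overlap, with dKO higher, for all 9 genes in DMSO, as for 37.4% of all genes, while 43.6% of all genes lay wholly lower. With MI-503 in WT cells, 7 genes lay wholly higher (43.0% of all genes) and 1, Dst, wholly lower (40.4%). With MI-503 in dKO cells these numbers were 3 (39.2%) and 4 (35.9%), and for dKO against WT in MI-503 they were 6 (38.7%) and 1 (38.4%). The comparisons share libraries: WT DMSO is the denominator of the genotype effect in DMSO and of the MI-503 effect in WT, and it held the lowest mean of 8 of the 9 genes. The 9 genes together took 1.26% and 1.21% of all counts in dKO MI-503, 1.43% and 1.51% in dKO DMSO, 0.953% and 0.922% in WT MI-503 and 0.614% and 0.579% in WT DMSO. The share was lowest in both WT DMSO libraries and highest in both dKO DMSO libraries.

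**Figure D1:**
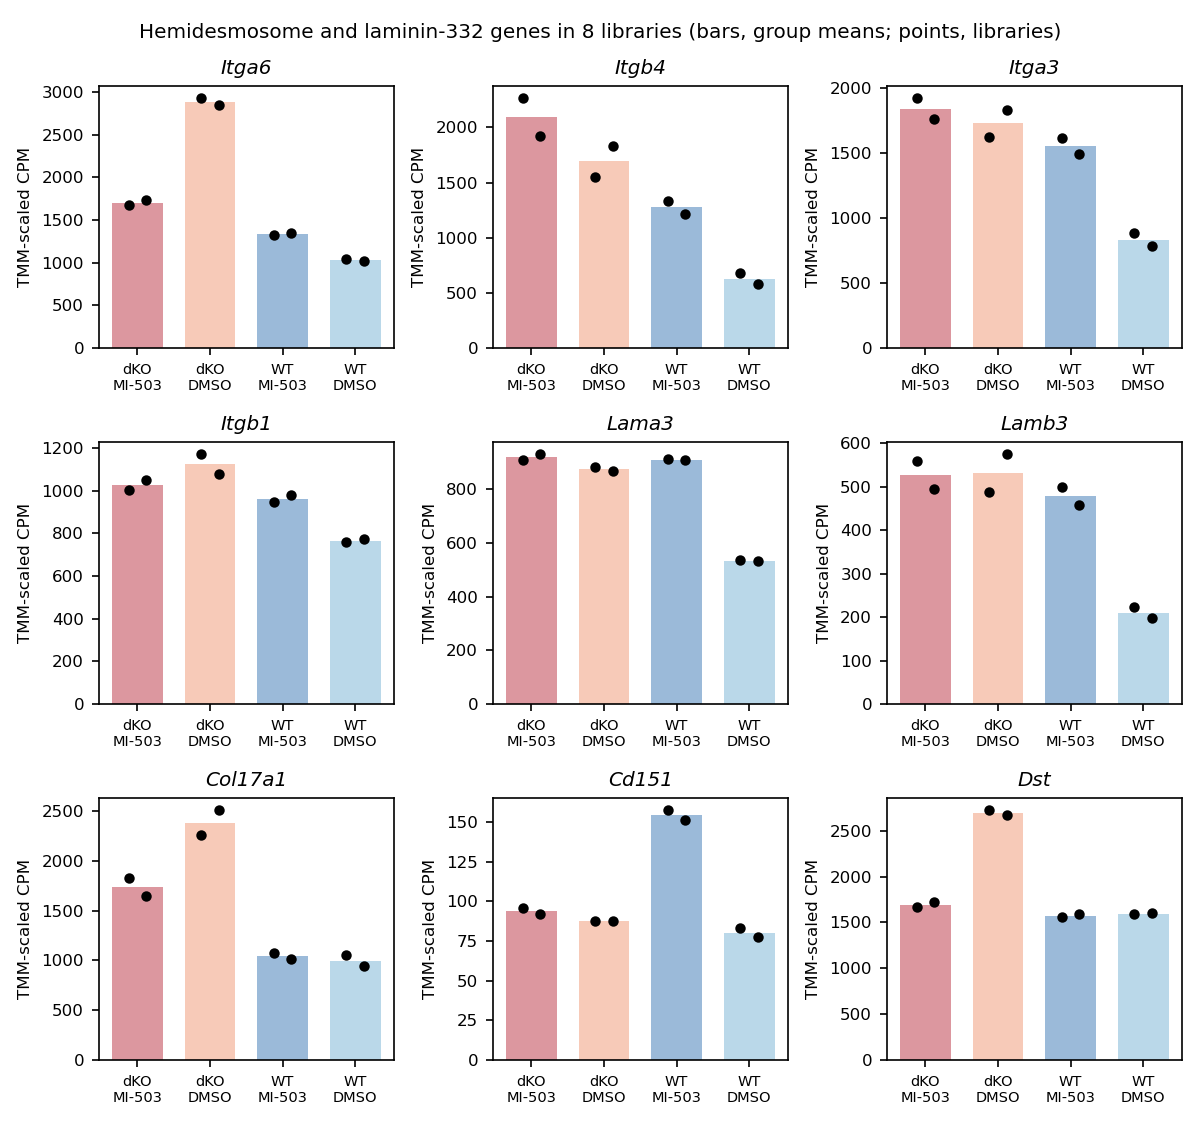
TMM-scaled CPM (y axis, linear, each panel on its own scale) of the 9 genes in the 4 groups, with bars for group means and points for the 2 libraries of each group. WT DMSO is lowest for every gene but Dst, where WT MI-503 is 1575 and WT DMSO 1597 CPM, and Cd151 alone is highest in WT MI-503.

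Itga6 (ENSMUSG00000027111, chromosome 2, 71786886 to 71858427) encodes the alpha-6 subunit, the laminin-binding chain of the hemidesmosomal integrin. Itga6 measured 1675 and 1728 CPM in the dKO MI-503 libraries, 2923 and 2845 CPM in dKO DMSO, 1326 and 1350.2 CPM in WT MI-503 and 1042 and 1014 CPM in WT DMSO. No groups overlapped, and the order from high to low was dKO DMSO, dKO MI-503, WT MI-503 and WT DMSO. Itga6 rose in dKO cells in DMSO (log2 fold change of 1.49 with SE 0.047, adjusted p = 7.13e-12), and 6.51% of all tested genes had a higher log2 fold change there. MI-503 raised it in WT cells (log2 fold change of 0.38 with SE 0.046, adjusted p = 4.57e-06) and lowered it in dKO cells (log2 fold change of -0.76 with SE 0.046, adjusted p = 1.01e-08). In MI-503 it was still higher in dKO cells (log2 fold change of 0.35 with SE 0.046, adjusted p = 2.14e-05).

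Itgb4 (ENSMUSG00000020758, chromosome 11, 115974725 to 116008412) encodes the beta-4 subunit, whose long cytoplasmic tail binds plectin and which pairs only with alpha-6. Itgb4 measured 2263 and 1926 CPM in the dKO MI-503 libraries, 1550.3 and 1836 CPM in dKO DMSO, 1332 and 1219 CPM in WT MI-503 and 685 and 576 CPM in WT DMSO. Here too no groups overlapped, but dKO MI-503 was the highest group. Itgb4 rose in dKO cells in DMSO (log2 fold change of 1.43 with SE 0.10, adjusted p = 1.78e-08), with MI-503 in WT cells (log2 fold change of 1.02 with SE 0.10, adjusted p = 3.98e-07) and in dKO cells in MI-503 (log2 fold change of 0.72 with SE 0.10, adjusted p = 2.49e-05). Its rise with MI-503 in dKO cells was small (log2 fold change of 0.31 with SE 0.10, adjusted p = 0.0145) and the call ended without dKO DMSO replicate 1, at 0.19 (adjusted p = 0.156), without dKO MI-503 replicate 1, at 0.18 (adjusted p = 0.15), and with DESeq2, at 0.30 (adjusted p = 0.0844).

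The balance of the RNA of the 2 subunits moved with MI-503 more than with the genotype in DMSO. The log2 ratio of Itga6 to Itgb4 was -0.43 and -0.16 in the dKO MI-503 libraries, 0.91 and 0.63 in dKO DMSO, -0.0067 and 0.15 in WT MI-503 and 0.61 and 0.81 in WT DMSO. The 2 DMSO groups overlapped, with a difference of 0.063 between their means. MI-503 groups lay below DMSO groups in both genotypes, by a difference of -1.07 in dKO and -0.64 in WT cells. These ratios do not depend on library scaling, but as CPM is not corrected for transcript length only their differences between groups can be read. With 2 libraries in each group the smallest p of an exact two-sided permutation test is 0.333, so the ratios are given without a test.

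**Figure D2:**
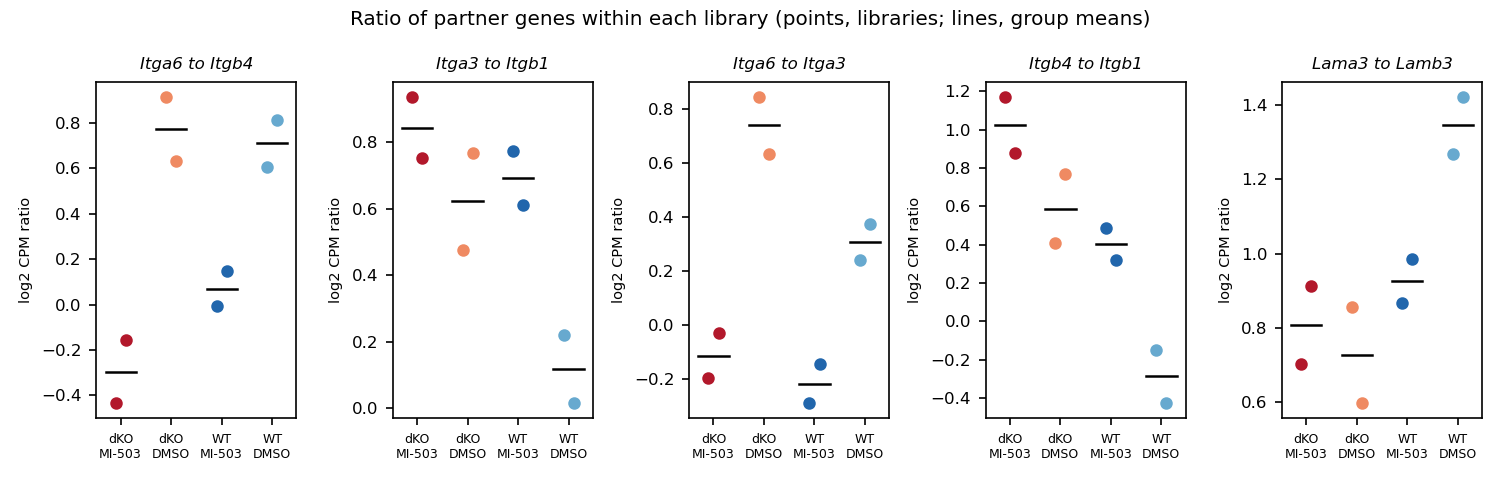
log2 ratio of TMM-scaled CPM (y axis) of 5 pairs of genes within each library, with points for the 2 libraries of a group and lines for group means. The ratio of Itga6 to Itgb4 is lower in both MI-503 groups (means -0.30 in dKO and 0.071 in WT) than in both DMSO groups (0.77 in dKO and 0.71 in WT).

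Col17a1 (ENSMUSG00000025064, chromosome 19, 47646341 to 47692042) encodes collagen XVII, a transmembrane protein that reaches from the hemidesmosomal plaque into the basement membrane. Col17a1 measured 1827 and 1642 CPM in the dKO MI-503 libraries, 2262 and 2506 CPM in dKO DMSO, 1074 and 1010.2 CPM in WT MI-503 and 1053 and 944 CPM in WT DMSO. The dKO groups lay apart from each other and above both WT groups, which overlapped. Col17a1 rose in dKO cells in DMSO (log2 fold change of 1.26 with SE 0.071, adjusted p = 2.35e-09) and in MI-503 (log2 fold change of 0.73 with SE 0.070, adjusted p = 8.43e-07), and fell with MI-503 in dKO cells (log2 fold change of -0.46 with SE 0.070, adjusted p = 7.11e-05). In WT cells the change with MI-503 did not pass (log2 fold change of 0.062 with SE 0.070, adjusted p = 0.447), but passed with library size only, at 0.24 (adjusted p = 0.00937), and with no filter on low counts, at 0.13 (adjusted p = 0.00338).

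Dst (ENSMUSG00000026131, chromosome 1, 33907888 to 34308662) encodes dystonin, a plakin whose epithelial form ties keratin to the plaque. Dst measured 1666 and 1723 CPM in the dKO MI-503 libraries, 2721 and 2671 CPM in dKO DMSO, 1558 and 1591 CPM in WT MI-503 and 1595 and 1599.6 CPM in WT DMSO. The dKO DMSO libraries stood well above the other 6. Dst rose in dKO cells in DMSO (log2 fold change of 0.76 with SE 0.045, adjusted p = 4.72e-09) and fell with MI-503 in dKO cells (log2 fold change of -0.67 with SE 0.045, adjusted p = 3e-08). In WT cells the change with MI-503 did not pass (log2 fold change of -0.021 with SE 0.045, adjusted p = 0.705), and its sign turned with library size only, where the gene was called at 0.15 (adjusted p = 0.00611). The difference between the genotypes in MI-503 was 0.11 (SE 0.045, adjusted p = 0.0636), and it passed with DESeq2 at 0.11 (adjusted p = 0.0421), with library size only at 0.18 (adjusted p = 0.00363), with no filter at 0.10 (adjusted p = 0.0392), with the stricter filter at 0.17 (adjusted p = 0.00509) and without either dKO DMSO library, at 0.11 (adjusted p = 0.0444) and 0.11 (adjusted p = 0.0467). Dystonin has epithelial, neuronal and muscle forms from different starts of 1 gene, and whole-gene counts do not tell them apart.

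The RefSeq promoter table (GRCm38.p6) matched 6 of the 9 genes. The 250 bases before a start are shown for 4 of them. Both listed starts of Dst are shown, since its counts add the RNA of all its starts. Col17a1, Lamb3 and Itgb1 are shown at 1 listed start each, as a plaque protein, a ligand chain and a receptor subunit. They rose in dKO cells in DMSO, as did all 9 genes. The Dst and Lamb3 stretches lie inside the span of the gene, whose longest annotated transcripts start further upstream. Capitals mark GGGCGG, the core of Sp1-type sites, on the given strand or its reverse complement, and would mark the AP-1 motif TGANTCA, which none of these stretches holds. The stretches lie at chr1:34011345-34011594, plus strand; chr1:34160010-34160259, plus strand; chr19:47692043-47692292, minus strand; chr1:193301744-193301993, plus strand; and chr8:128685404-128685653, plus strand.
Dst, start 1: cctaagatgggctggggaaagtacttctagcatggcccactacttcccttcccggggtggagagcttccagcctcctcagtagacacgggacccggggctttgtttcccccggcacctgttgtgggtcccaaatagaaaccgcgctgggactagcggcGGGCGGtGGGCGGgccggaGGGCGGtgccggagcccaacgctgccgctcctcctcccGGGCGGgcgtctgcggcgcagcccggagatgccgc
Dst, start 2: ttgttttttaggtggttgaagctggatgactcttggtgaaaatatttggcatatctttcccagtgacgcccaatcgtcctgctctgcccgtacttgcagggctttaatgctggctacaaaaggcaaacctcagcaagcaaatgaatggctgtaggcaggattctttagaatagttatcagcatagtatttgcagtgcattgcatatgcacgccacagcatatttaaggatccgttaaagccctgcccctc
Col17a1: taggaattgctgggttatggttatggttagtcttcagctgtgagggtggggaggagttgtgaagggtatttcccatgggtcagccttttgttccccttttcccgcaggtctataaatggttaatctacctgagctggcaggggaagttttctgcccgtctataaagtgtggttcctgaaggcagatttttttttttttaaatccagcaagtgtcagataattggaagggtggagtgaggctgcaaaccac
Lamb3, start 1: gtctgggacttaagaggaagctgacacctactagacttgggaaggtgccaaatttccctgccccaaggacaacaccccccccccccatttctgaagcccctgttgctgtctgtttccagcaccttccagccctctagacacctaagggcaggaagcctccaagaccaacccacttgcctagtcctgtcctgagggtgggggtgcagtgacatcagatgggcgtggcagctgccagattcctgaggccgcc
Itgb1: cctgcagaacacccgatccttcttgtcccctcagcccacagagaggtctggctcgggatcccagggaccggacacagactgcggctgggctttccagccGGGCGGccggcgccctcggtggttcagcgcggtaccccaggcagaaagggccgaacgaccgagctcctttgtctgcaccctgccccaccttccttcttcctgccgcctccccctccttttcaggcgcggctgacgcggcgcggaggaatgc

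GGGCGG occurs 4 times before the first start of Dst, 1 time before that of Itgb1, and not in the stretches of Col17a1, Lamb3 and the second start of Dst. Of all 32851 RefSeq windows of 300 bases, 35.7% hold it and 7.81% hold TGANTCA, counting both strands. These windows reach past the start, so they are longer than the 250 bases shown and the shares are not for a like length. Of the genes not shown, Itga3 holds GGGCGG 3 times in window 1 and 1 time in window 2, and Cd151 2 times in window 1 and 0 times in window 2. Window 2 of Itga3 also holds TGANTCA 1 time, past its start. A match of letters is a description of the window, not a binding site.

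Itga3 (ENSMUSG00000001507, chromosome 11, 95044475 to 95076844) encodes the alpha-3 subunit of the actin-linked laminin receptor. Itga3 measured 1922 and 1767 CPM in the dKO MI-503 libraries, 1628 and 1835 CPM in dKO DMSO, 1621 and 1494 CPM in WT MI-503 and 883 and 782 CPM in WT DMSO. WT DMSO lay below the other 3 groups, and the dKO groups overlapped each other. Itga3 rose in dKO cells in DMSO (log2 fold change of 1.06 with SE 0.073, adjusted p = 2.04e-08) and with MI-503 in WT cells (log2 fold change of 0.90 with SE 0.073, adjusted p = 7.23e-08), while its change with MI-503 in dKO cells did not pass (log2 fold change of 0.091 with SE 0.073, adjusted p = 0.311). The higher level in dKO cells in MI-503 (log2 fold change of 0.24 with SE 0.073, adjusted p = 0.0113) lost its call without WT MI-503 replicate 2, at 0.19 (adjusted p = 0.0984), or without dKO MI-503 replicate 1, at 0.18 (adjusted p = 0.088).

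Itgb1 (ENSMUSG00000025809, chromosome 8, 128685654 to 128733579) encodes the beta-1 subunit, which pairs with many alpha subunits besides alpha-3. Itgb1 measured 1005 and 1049.6 CPM in the dKO MI-503 libraries, 1169.6 and 1078 CPM in dKO DMSO, 949 and 977 CPM in WT MI-503 and 759 and 774 CPM in WT DMSO. It followed the order of Itga6 over a smaller range. Itgb1 rose in dKO cells in DMSO (log2 fold change of 0.55 with SE 0.051, adjusted p = 3.64e-07) and with MI-503 in WT cells (log2 fold change of 0.33 with SE 0.051, adjusted p = 4.94e-05). Its fall with MI-503 in dKO cells (log2 fold change of -0.13 with SE 0.051, adjusted p = 0.0434) was close to the threshold. That call ended with library size only, at -0.11 (adjusted p = 0.0602), with the stricter filter, at -0.11 (adjusted p = 0.0604), and with the replicate block, at -0.13 (adjusted p = 0.0714). It also ended without dKO DMSO replicate 1, at -0.074 (adjusted p = 0.274), without dKO MI-503 replicate 1, at -0.10 (adjusted p = 0.22), and without WT MI-503 replicate 1 or 2, at -0.13 (adjusted p = 0.0685) and -0.14 (adjusted p = 0.059). In MI-503 the genotypes did not differ past the threshold (log2 fold change of 0.093 with SE 0.051, adjusted p = 0.14), but did with library size only, at 0.16 (adjusted p = 0.0113), and with the stricter filter, at 0.16 (adjusted p = 0.0137).

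The log2 ratio of Itgb4 to Itgb1 was 1.17 and 0.88 in dKO MI-503, 0.41 and 0.77 in dKO DMSO, 0.49 and 0.32 in WT MI-503 and -0.15 and -0.43 in WT DMSO. It was lowest in WT DMSO and highest in dKO MI-503, and no compared groups overlapped. The ratio of Itga6 to Itga3 was -0.20 and -0.032 in dKO MI-503 and 0.84 and 0.63 in dKO DMSO, and -0.29 and -0.15 in WT MI-503 and 0.24 and 0.37 in WT DMSO. The MI-503 groups overlapped, and both lay below both DMSO groups.

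Cd151 (ENSMUSG00000025510, chromosome 7, 141467362 to 141471481) encodes the tetraspanin of the laminin-binding integrins and stood apart from the other genes in its order. Cd151 measured 96.0 and 92.4 CPM in the dKO MI-503 libraries, 87.8 and 87.8 CPM in dKO DMSO, 157 and 151 CPM in WT MI-503 and 83.2 and 77.6 CPM in WT DMSO. Both WT MI-503 libraries lay far above the other 6, which spanned a narrow range. Cd151 rose with MI-503 in WT cells (log2 fold change of 0.94 with SE 0.051, adjusted p = 9.85e-10), and in MI-503 it was lower in dKO than in WT cells (log2 fold change of -0.71 with SE 0.050, adjusted p = 3.84e-08). Its change with MI-503 in dKO cells did not pass (log2 fold change of 0.10 with SE 0.050, adjusted p = 0.105) except with the stricter filter, at 0.12 (adjusted p = 0.0343). Its rise in dKO cells in DMSO was the smallest of the 9 genes (log2 fold change of 0.13 with SE 0.051, adjusted p = 0.0411). That call ended without WT DMSO replicate 2, at 0.074 (adjusted p = 0.324), and, with its log2 fold change still at 0.13, without dKO MI-503 replicate 2 or without any 1 of the WT MI-503 and dKO DMSO libraries, at adjusted p-values from 0.0503 to 0.0942.

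Lama3 (ENSMUSG00000024421, chromosome 18, 12333417 to 12583013) encodes the alpha-3 chain of laminin-332, the chain that integrins bind. Lama3 measured 909.9 and 929.7 CPM in the dKO MI-503 libraries, 883 and 869 CPM in dKO DMSO, 912 and 908 CPM in WT MI-503 and 536 and 531 CPM in WT DMSO. The 3 groups other than WT DMSO lay close together, and the MI-503 groups overlapped. Lama3 rose in dKO cells in DMSO (log2 fold change of 0.72 with SE 0.043, adjusted p = 4.57e-09) and with MI-503 in WT cells (log2 fold change of 0.77 with SE 0.043, adjusted p = 1.43e-09). The change with MI-503 in dKO cells did not pass (log2 fold change of 0.070 with SE 0.043, adjusted p = 0.185) except with the stricter filter, at 0.092 (adjusted p = 0.0431), and neither did the difference between the genotypes in MI-503 (log2 fold change of 0.016 with SE 0.043, adjusted p = 0.777).

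Lamb3 (ENSMUSG00000026639, chromosome 1, 193294353 to 193343878) encodes the beta-3 chain, which occurs in laminin-332. Lamb3 measured 559 and 494 CPM in the dKO MI-503 libraries, 487 and 574 CPM in dKO DMSO, 499 and 459 CPM in WT MI-503 and 223 and 198 CPM in WT DMSO. It had 1 low group, WT DMSO, and 3 high groups, of which the dKO MI-503 libraries overlapped both others. Lamb3 rose in dKO cells in DMSO (log2 fold change of 1.33 with SE 0.084, adjusted p = 6.99e-09) and with MI-503 in WT cells (log2 fold change of 1.19 with SE 0.083, adjusted p = 1.57e-08), but not past the threshold with MI-503 in dKO cells (log2 fold change of -0.011 with SE 0.082, adjusted p = 0.923), where the sign turned with library size only and with the stricter filter. In MI-503, the difference of dKO from WT cells was short of the threshold (log2 fold change of 0.14 with SE 0.082, adjusted p = 0.178) but passed with no filter, at 0.13 (adjusted p = 0.0175), with only the groups compared, at 0.14 (adjusted p = 0.0488), and without dKO MI-503 replicate 2, at 0.23 (adjusted p = 0.0448). The log2 ratio of Lama3 to Lamb3 was between 0.60 and 0.98 in the dKO MI-503, dKO DMSO and WT MI-503 libraries, and 1.27 and 1.42 in WT DMSO.

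**Figure D3:**
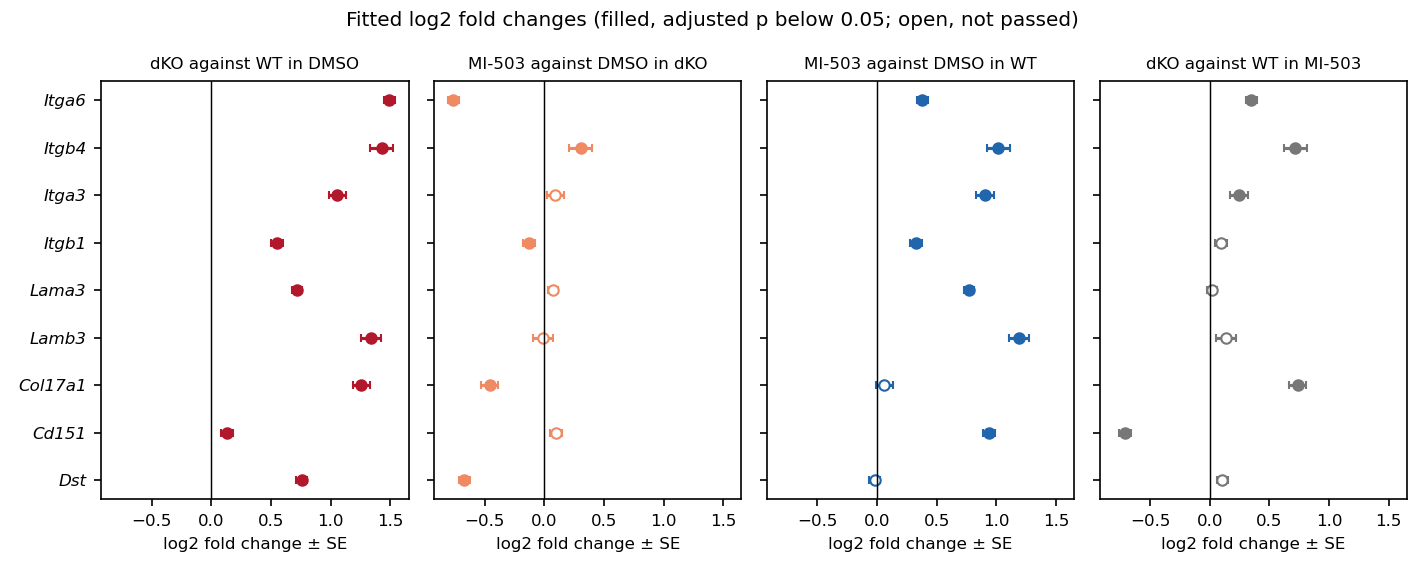
Fitted log2 fold changes with SE (x axis, log2 scale) of the 9 genes (rows) in 4 comparisons, filled where the adjusted p is below 0.05. All 9 points lie above 0 for dKO against WT in DMSO, from 0.13 to 1.49, while those for MI-503 in dKO cells lie from -0.76 to 0.31.

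The effect of MI-503 was lower in dKO than in WT cells for all 9 genes, by a test of the difference itself, where 22.0% of all tested genes had a lower effect in dKO cells and 24.8% a higher one, 46.8% in all. The difference of the log2 fold changes, dKO minus WT, was -1.20 (SE 0.12, adjusted p = 1.94e-06) for Lamb3 and -1.14 (SE 0.065, adjusted p = 1.79e-08) for Itga6, the 2 farthest from 0. It was -0.46 (SE 0.072, adjusted p = 0.000131) for Itgb1 and -0.52 (SE 0.10, adjusted p = 0.000632) for Col17a1, the 2 nearest to 0. The 9 differences had a median of -0.71, against 0.018 over all genes. The genes reached it in different ways. Itga6 and Itgb1 rose in WT and fell in dKO cells, and Col17a1 and Dst fell in dKO cells with a change in WT that did not pass. Itga3, Lama3, Lamb3 and Cd151 rose in WT cells with a change in dKO cells that did not pass, and Itgb4 rose in both. For all 9 genes, the lowest dKO MI-503 library was above the highest WT DMSO library. The share of all genes for which this held was not counted, so it is not read as particular to the 9. WT DMSO also held the lowest mean of 8 of them.

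**Figure D4:**
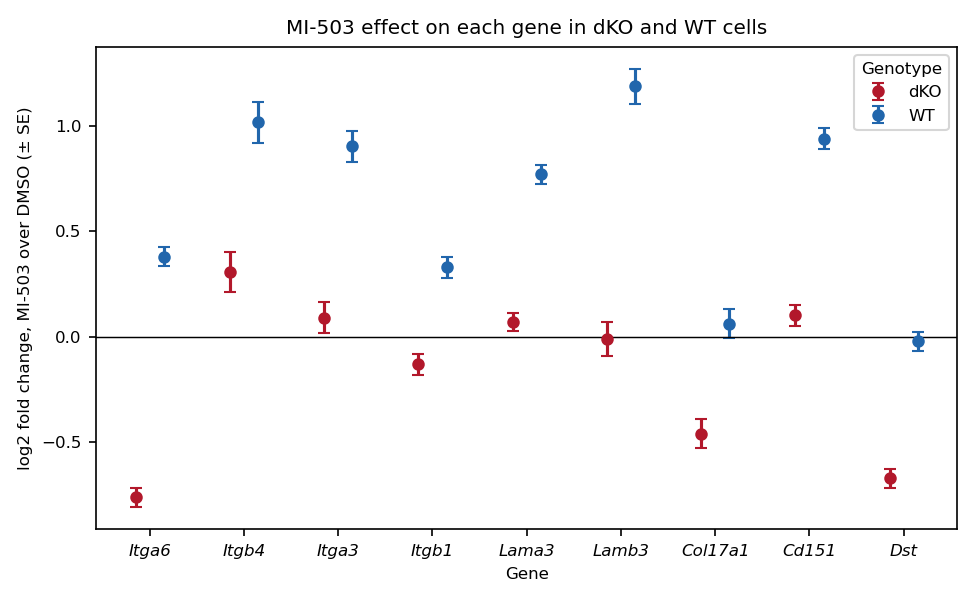
Log2 fold change of MI-503 over DMSO with SE (y axis) for each of the 9 genes (x axis) in dKO cells (red) and WT cells (blue). The dKO point is below the WT point for every gene, most for Lamb3 (-0.011 in dKO and 1.19 in WT) and Itga6 (-0.76 in dKO and 0.38 in WT).

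Itgb4, Itga3, Lamb3, Col17a1 and Cd151 differed between replicates of a group with the same signs. Each was higher in replicate 1 than in replicate 2 in dKO MI-503, WT MI-503 and WT DMSO. Each was lower in dKO DMSO, though only by a log2 ratio of -0.0011 for Cd151. For Itgb4 the log2 ratio of replicate 1 to replicate 2 was 0.23 in dKO MI-503, -0.24 in dKO DMSO, 0.13 in WT MI-503 and 0.25 in WT DMSO. In 3 of the 4 groups this was more than the 95th percentile of genes with a mean of at least 50 CPM, which was 0.19, 0.21, 0.13 and 0.19 in the same order. Lamb3 was past it in 1 group, dKO DMSO, at -0.24, and Itga3, Col17a1 and Cd151 in none, with at most 0.18, 0.16 and 0.10 in size. Outside the 9 genes, Kmt2d, Krt5 and Plec shared these signs, with Kmt2d at 0.27, -0.26, 0.21 and 0.14. Itgb1 and Dst had the opposite sign in every group. So did Erbin, whose replicates 1 and 2 held 157 and 164 CPM in dKO MI-503 and 266 and 253 in dKO DMSO. They held 209 and 214 CPM in WT MI-503 and 449 and 457 in WT DMSO. The share of all genes with either set of signs was not counted, so neither is read as a shared pattern. Itga6, Lama3 and Dst differed by at most 0.049 between replicates, and their fold changes have the smallest SE of the 9 genes. What set the replicates apart was not tested.

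Krt5 and Krt14, which encode the basal keratins that hemidesmosomes anchor, and the plakin genes Plec and Dsp were also higher in dKO cells in DMSO. Of the 5 tested hemidesmosome partners, 3 rose, 1 fell and 1 did not pass (median 0.94). Krt5 measured 9579 ± 729.7 CPM in dKO DMSO against 3974 ± 222 in WT DMSO (log2 fold change of 1.27, adjusted p = 2.52e-09), and Krt14 4846 ± 559 against 1934 ± 208 CPM (log2 fold change of 1.33, adjusted p = 3.89e-08). Erbin, which encodes a scaffold that binds beta-4, fell (log2 fold change of -0.80, adjusted p = 3.15e-09), as it did with MI-503 in dKO (log2 fold change of -0.69, adjusted p = 2.85e-08) and WT cells (log2 fold change of -1.10, adjusted p = 9.44e-11). With MI-503, of the same 5 genes, 0 rose and 1 fell in dKO cells, and 3 rose and 2 fell in WT cells. In WT cells, Krt5 (log2 fold change of 0.91, adjusted p = 5.06e-08) and Col7a1, the anchoring fibril collagen (log2 fold change of 1.49, adjusted p = 2e-05), were among those that rose. Krt14 fell there with Erbin (log2 fold change of -0.41, adjusted p = 0.00189 for Krt14). Col7a1 was low, at 3.99 ± 0.297 CPM in WT MI-503 against 1.42 ± 0.251 in WT DMSO. Its change in dKO cells did not pass (log2 fold change of -0.31, adjusted p = 0.267). Of the 6 plakin genes besides Dst, 3 rose, 1 fell and 2 did not pass in dKO cells in DMSO, among them Dsp, which encodes desmoplakin of desmosomes (log2 fold change of 1.08, adjusted p = 1.17e-10), Macf1, a linker of actin and microtubules (log2 fold change of 1.08, adjusted p = 1.18e-10), and Ppl, which encodes periplakin and fell (log2 fold change of -0.64, adjusted p = 1.03e-07). Plec stands in both lists, and its rise was 691 ± 134 against 359.8 ± 38.1 CPM (log2 fold change of 0.94, adjusted p = 8.63e-06).

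Of 18 tested genes of other basement membrane proteins, 6 rose, 9 fell and 3 did not pass in dKO cells in DMSO (median log2 fold change -0.47), where 29.6% of all genes rose and 35.8% fell. Sparc, which encodes a collagen-binding matrix protein, fell to 0.674 ± 0.117 CPM in dKO DMSO against 117 ± 7.53 in WT DMSO (log2 fold change of -7.42, adjusted p = 5.19e-15), and Hspg2, which encodes perlecan, to 2.06 ± 0.483 against 43.6 ± 5.96 CPM (log2 fold change of -4.40, adjusted p = 1.13e-11). Lama5, the alpha chain of the other main epithelial laminins, fell (log2 fold change of -0.77, adjusted p = 2.88e-05), and Fras1, which encodes a protein of the epithelial basement membrane, rose to 5.90 ± 0.239 against 0.607 ± 0.0629 CPM (log2 fold change of 3.28, adjusted p = 1.97e-10). With MI-503, 13 of the 18 rose and 1 fell in dKO cells, where 29.1% of all genes rose and 26.5% fell. In WT cells 11 rose and 2 fell, where 35.2% of all genes rose and 33.7% fell. Col4a1, a chain of collagen IV, rose with MI-503 in dKO (log2 fold change of 1.05, adjusted p = 2.33e-07) and in WT cells (log2 fold change of 1.40, adjusted p = 1.89e-09). Sparc rose in both as well, to 3.82 ± 0.304 against 0.674 ± 0.117 CPM in dKO cells and to 199 ± 0.782 against 117 ± 7.53 CPM in WT cells. Lama5 rose with MI-503 in dKO cells (log2 fold change of 0.82, adjusted p = 2.26e-05), and its change in WT cells did not pass (-0.0028, adjusted p = 0.985). Lamb1 (log2 fold change of 0.88) and Lamb2 (log2 fold change of 2.21), other laminin chains, rose in dKO cells in DMSO. Lamc1 fell there (log2 fold change of -0.12). Lama5 and these chains were named after their values were seen.

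Among 14 tested genes of other integrins and laminin receptors, 5 rose, 6 fell and 3 did not pass in dKO cells in DMSO. Of all genes tested, 29.6% rose and 35.8% fell in that comparison. Bcam, which encodes a receptor for the laminin alpha-5 chain, rose to 261 ± 34.9 CPM in dKO DMSO against 32.8 ± 4.13 in WT DMSO (log2 fold change of 2.99, adjusted p = 6.41e-11). Itgb7, a beta subunit known from lymphocytes, fell (log2 fold change of -2.50, adjusted p = 5.67e-11), as did Itgav, the alpha subunit of vitronectin receptors (log2 fold change of -1.09, adjusted p = 3.04e-10). With MI-503, Itga2, the alpha subunit of a collagen receptor, fell in dKO (log2 fold change of -1.17, adjusted p = 1.16e-09) and in WT cells (log2 fold change of -1.5, adjusted p = 2.53e-11). Of 18 focal adhesion genes, 10 rose, 6 fell and 2 did not pass in dKO cells in DMSO. Fermt2, which encodes the integrin activator kindlin-2, rose to 11.7 ± 0.400 CPM in dKO DMSO against 0.632 ± 0.0186 in WT DMSO (log2 fold change of 4.20, adjusted p = 6.85e-12). Tns4, which encodes an epithelial tensin, rose (log2 fold change of 1.12, adjusted p = 8.62e-11), and Lims1, a partner of integrin-linked kinase, fell (log2 fold change of -0.70, adjusted p = 3.89e-08). Fermt1, the epithelial paralog of Fermt2, fell (log2 fold change of -0.63, adjusted p = 1.23e-07) and was named after its values were seen.

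**Figure D5:**
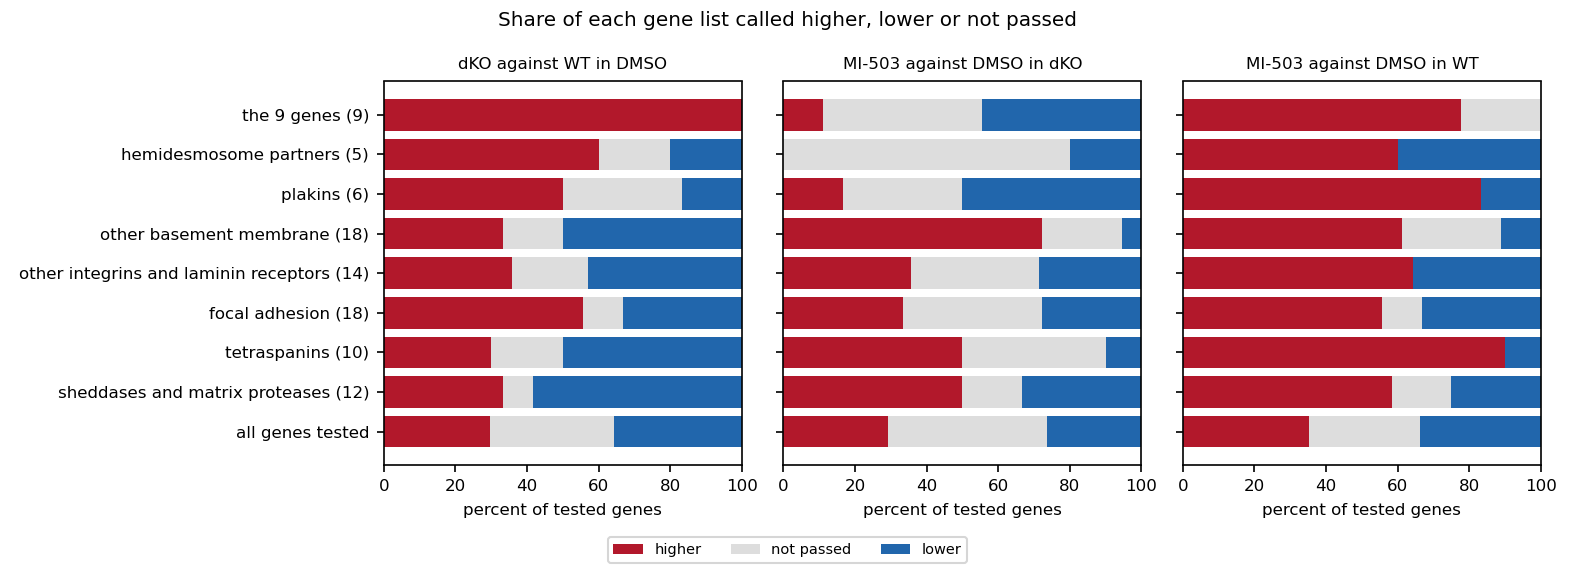
Percent of tested genes (x axis) called higher (red), not passed (grey) or lower (blue) in each gene list, with the number tested in brackets, and in all genes tested. In dKO against WT in DMSO the bar of the 9 genes is wholly red, against 29.6% red for all genes.

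The genes whose pattern over the 4 group means was most like that of a member were found by the root mean square distance of centred log2 CPM. The 9754 genes compared had a mean of at least 5 CPM, a level above 0 in every group and a proper symbol. Genes with provisional symbols, such as Gm numbers and Rik names, were left out. Nearest to Itga6 were Cradd (0.0561), Rin1 (0.0767) and Mbd6 (0.0866), and nearest to Itgb4 were Asap2 (0.0530), Spg7 (0.0570) and Racgap1 (0.0596), each distance in log2 units. Nearest to Lamb3 were Kdf1 (0.0366), Afg3l1 (0.0369) and Hdhd5 (0.0381). Nearest to Col17a1 were Runx2 (0.0277), Eml6 (0.0317) and Esyt1 (0.0762). Among the members, the nearest pairs were Itga3 and Lamb3 (0.115), Itga3 and Lama3 (0.150) and Itga6 and Col17a1 (0.160), while the integrin partners Itga6 and Itgb4 were 0.446 apart.

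Of 7 fibroblast markers, Col1a2, Dcn and Lum had 0 counts in every library, and the list summed to 7.78 to 8.49 CPM in dKO MI-503, 3.56 to 4.16 in dKO DMSO, 1.33 to 1.57 in WT MI-503 and 1.37 to 1.57 in WT DMSO. The 5 smooth muscle markers summed to 7.60 to 7.63 CPM in dKO MI-503, 1.25 to 1.43 in dKO DMSO, 40.3 to 42.8 in WT MI-503 and 3.16 to 4.17 in WT DMSO, and Acta2, the smooth muscle actin, held 42.0 and 39.6 CPM of this in WT MI-503. The 5 endothelial markers summed to at most 0.195 CPM. The 6 immune markers summed to 61.2 to 69.9 CPM in dKO MI-503, 13.1 to 13.2 in dKO DMSO, 161 to 166 in WT MI-503 and 16.5 to 18.7 in WT DMSO, nearly all from Cd68, a lysosomal protein of macrophages. Cd68 was the 1 tested gene of that list and rose with MI-503 in dKO (log2 fold change of 2.32, adjusted p = 2.93e-11) and in WT cells (log2 fold change of 3.22, adjusted p = 4.65e-13), while Ptprc, the pan-leukocyte marker, was at 0.0292 CPM or less in every library. The 5 Schwann and nerve markers summed to 13.5 to 15.1 CPM in dKO MI-503, 11.9 to 12.0 in dKO DMSO, 73.8 to 73.9 in WT MI-503 and 56.0 to 60.0 in WT DMSO, most of it from Mbp, which encodes a myelin protein and fell in dKO cells in DMSO (log2 fold change of -2.38, adjusted p = 3.79e-12). Trp63, the regulator of basal epithelium, measured 565 ± 0.510 CPM in dKO MI-503, 1005 ± 19.4 in dKO DMSO, 235 ± 1.63 in WT MI-503 and 456 ± 7.69 in WT DMSO. It fell with MI-503 in dKO (log2 fold change of -0.83, adjusted p = 2.24e-09) and in WT cells (log2 fold change of -0.96, adjusted p = 1.75e-10). Of the 6 basal markers, which include Trp63 and Krt5, 5 rose, 0 fell and 1 did not pass in dKO cells in DMSO (median log2 fold change 0.92). With MI-503 in dKO cells, 1 of the 6 rose, 3 fell and 2 did not pass. With MI-503 in WT cells, 2 rose, 3 fell and 1 did not pass, and Krt5 and Cd44 (log2 fold change of 0.90, adjusted p = 1.16e-09) were the 2 that rose. The part of the marker levels in the changes of the 9 genes was not tested.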

How the data were processed

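PolyA RNA-seq of 8 libraries in 4 groups of 2 was analysed; the other 32 of the 40 samples were not analysed here. The authors deposited unnormalized read counts for each Ensembl gene. For the series as a whole, the aligners STAR and Bowtie2 and, besides MACS3, SICER and deepTools, the mouse builds mm10 and GRCm38 are listed per the submitters' processing notes. How reads were assigned to genes, with which annotation and whether by strand, is not given in the sources used, so overlapping genes are uncertain. A row without an identifier was left out. Symbols matched 53274 of 53465 identifiers, and coordinates are RefSeq's for GRCm38.p6. The model was edgeR 4.0.16 under R 4.3.3 (filterByExpr by group, minimum count 10, minimum total 15; TMM; quasi-likelihood, 1 mean per group over 8 libraries, 4 residual degrees of freedom, prior count 0.125), which was tested on simulated data. The SE was taken as the size of the fold change (log2) divided by the root of its F statistic. Other settings tried were DESeq2 1.42.0, RLE size factors, library totals without a factor, no filter on low counts, a mean of at least 5 CPM as a stricter filter, the replicate number as a block, a fit to only the groups compared, and leaving out each library. Replicate ratios of all genes used log2(CPM + 0.05). The 9 genes and the lists were chosen with earlier results of these data known. From each list the 3 members with the smallest adjusted p were to be named where at least 3 passed, and others as needed to describe it; 1 gene of the hemidesmosome partners is not reported here. Counts of 0 allow up to 3 counts, 0.0438 to 0.0516 CPM by library total, for counting error only.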

Additional observations from a re-analysis of the deposited data

Results flagged for a closer look

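The effect of MI-503 differed between dKO and WT cells in each of the 9 genes, by the interaction test of edgeR with adjustment over all 16921 genes, in which 46.8% of all genes passed. The difference of the log2 fold changes, dKO minus WT, was -1.14 (SE 0.065, adjusted p = 1.79e-08) for Itga6, -0.71 (SE 0.14, adjusted p = 0.000688) for Itgb4 and -0.81 (SE 0.10, adjusted p = 2.13e-05) for Itga3. It was -0.46 (SE 0.072, adjusted p = 0.000131) for Itgb1, -0.84 (SE 0.071, adjusted p = 6.14e-07) for Cd151 and -0.65 (SE 0.064, adjusted p = 2.23e-06) for Dst. It was -0.70 (SE 0.060, adjusted p = 7e-07) for Lama3, -1.20 (SE 0.12, adjusted p = 1.94e-06) for Lamb3 and -0.52 (SE 0.10, adjusted p = 0.000632) for Col17a1. All 4 groups enter this test, and WT DMSO, the group with the lowest TMM factors, enters it as the baseline of the WT effect.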

How the results depend on the processing

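Of the 666 values of single genes under other settings, 623 kept their direction and their side of the threshold, among them all 126 of the difference of the MI-503 effects. In WT cells the change of Dst with MI-503 turned to 0.0093 with RLE size factors, 0.15 with library size only, 0.0093 with DESeq2, 0.053 with no filter and 0.031 with the stricter filter, and that of Col17a1 ran from -0.019 to 0.14 with 1 library left out, turning without WT DMSO replicate 2. In dKO cells the change of Lamb3 turned to 0.0029 with library size only and 0.010 with the stricter filter, and ran from -0.13 to 0.11 with 1 library left out, turning without replicate 2 of dKO DMSO or of dKO MI-503 (at 0.074). None of these had passed with TMM, and the cause was not tested. With MI-503 in dKO cells, the number of the 9 genes called ran from 3 to 5 with 1 library left out; it was 3 without replicate 1 of either dKO group and 5 without replicate 2 of either, and the cause was not tested. Library size only moved the median of all genes by 0.23 in dKO against WT in DMSO, by 0.17 with MI-503 in WT cells and by -0.16 in the difference of effects. With it, 61.7% of the calls were higher in dKO against WT in DMSO (45.3% with TMM) and 37.2% in the difference of effects (52.9%); all 9 genes kept both calls. The replicate block gave 10798 calls in place of 11070 in dKO against WT in DMSO. Among the 9 genes it changed only the call of Itgb1 with MI-503 in dKO cells. Nothing states what a replicate number marks. Deviations of same-numbered libraries correlated at -0.089 to 0.059 across genes. With 2 libraries in each group, this cannot show whether the numbers pair the samples, and the main model did not use them. The fit to only the groups compared could not be made for the difference of effects.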

Other observations

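Tetraspanin genes other than Cd151 mostly rose with MI-503 in WT cells: of 10 tested, 9 rose, 1 fell and 0 did not pass (median 0.97). Of all genes, 35.2% rose and 33.7% fell with MI-503 in WT cells, and 29.1% rose and 26.5% fell in dKO cells. Between the genotypes, 26.6% of all genes rose and 28.5% fell in dKO cells in MI-503. Cd9 measured 669.5 ± 5.44 CPM in WT MI-503 against 259 ± 5.55 in WT DMSO (log2 fold change of 1.37, adjusted p = 1.09e-11, edgeR), Tspan1 43.1 ± 3.71 against 12.0 ± 0.388 CPM (log2 fold change of 1.84, adjusted p = 1.31e-10) and Cd81 427 ± 5.30 against 224 ± 1.91 CPM (log2 fold change of 0.93, adjusted p = 1.67e-10). In dKO cells 5 rose, 1 fell and 4 did not pass, with Cd81 (log2 fold change of 0.90, adjusted p = 8.8e-10) and Cd9 (log2 fold change of 0.75, adjusted p = 1.04e-08) among those that rose, and between the genotypes in MI-503, 2 rose, 8 fell and 0 did not pass in dKO cells. Of 12 tested genes of sheddases and matrix proteases with their inhibitors, 7 rose, 3 fell and 2 did not pass with MI-503 in WT cells and 6 rose, 4 fell and 2 did not pass in dKO cells. Plau, which encodes urokinase, measured 196 ± 3.99 CPM in WT MI-503 against 40.1 ± 0.208 in WT DMSO (log2 fold change of 2.29, adjusted p = 2.44e-13). Timp2, an inhibitor of matrix proteases, rose with MI-503 in dKO cells (log2 fold change of 0.68, adjusted p = 1.92e-08) and in WT cells (log2 fold change of 1.18, adjusted p = 2.39e-11). Adam10, which encodes a sheddase, fell with MI-503 in dKO cells (log2 fold change of -0.89, adjusted p = 6.85e-09) and in WT cells (log2 fold change of -0.39, adjusted p = 1.07e-05). In dKO cells in DMSO, 4 rose, 7 fell and 1 did not pass (median -0.29), where 29.6% of all genes rose and 35.8% fell. Plau (log2 fold change of -1.14, adjusted p = 3.02e-10) and Timp2 (log2 fold change of -0.68, adjusted p = 1e-08) fell there, and Bmp1, which encodes a protease known to process laminin-332, rose to 33.2 ± 1.30 CPM against 11.3 ± 0.977 in WT DMSO (log2 fold change of 1.55, adjusted p = 6.63e-10).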
